A study of Sus scrofa with 8 samples.

Results

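Cytokines are the secreted or membrane-bound proteins through which white blood cells signal, chemokines are the cytokines that draw cells along a gradient, and each acts through receptors on the cells that answer. The 73 genes described here are those interleukins, CC and CXC chemokines, tumour necrosis factor (TNF) superfamily members, colony-stimulating factors and receptors of these families that the arrays name by a RefSeq transcript. They were taken by symbol (IL, CCL, CCR, CXCL or CXCR followed by a digit, TNF, or CSF followed by 1, 2 or 3), with IL10RB, CCL5 and CXCL10 left out, and they make up 73 of 2389 named genes. By role, 48 are ligands, 23 are receptors, and the other 2, TNFAIP6 and TNFAIP8L2, are neither. The choice by symbol used no measured value, though earlier results of these data were known when it was made.

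The samples were whole blood of 8 female pigs (Sus scrofa) of the fifth parity, taken from the submandibular vein 14 days after insemination. Pregnant sows gave 4 samples and non-pregnant sows gave the other 4, with no further treatment stated for either group. The sows were chosen as 3 pairs of half-sibs and 1 unrelated pair. RNA of each sow was hybridised to 1 single-colour Agilent array, so each value belongs to 1 animal. Both of the 2 slides carried 2 pregnant and 2 non-pregnant sows. Pregnant replicate 2 stood apart: its array was the dimmest, with a 75th percentile signal of 143 against 176 to 298, and its highest correlation with any other array over the genes tested (r = 0.963) was below that of the other arrays (0.974 to 0.988). The lowest correlation of any 2 arrays, 0.884, was between pregnant replicates 1 and 2.

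In the pig, conceptuses elongate and attach to the uterus in the weeks after fertilisation while releasing an interferon and a form of interleukin 1 beta into the uterus, and blood cells are among those that answer interferons. Ligands of the inflammatory kind, such as IL1B, TNF and CXCL8, are made in bursts by activated monocytes and neutrophils under the transcription factor NF-kappaB. Receptors such as CCR7, CXCR4 and IL7R are carried by resting lymphocytes as they circulate, and most interleukin receptors signal through JAK kinases and STAT factors.

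Receptors were detected in blood far more completely than ligands. Of the 23 receptors, 21 (91.3%) were well above background on all 8 arrays, against 25 of the 48 ligands (52.1%) and 71.5% of all named genes. At the other end, 13 ligands (27.1%) were not well above background on any array, against 1 receptor (4.35%) and 12.8% of all named genes. Each gene is represented by its brightest probe. A detection call also depends on how well a probe binds, and levels of different probes are not compared here.

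**Figure D1:**
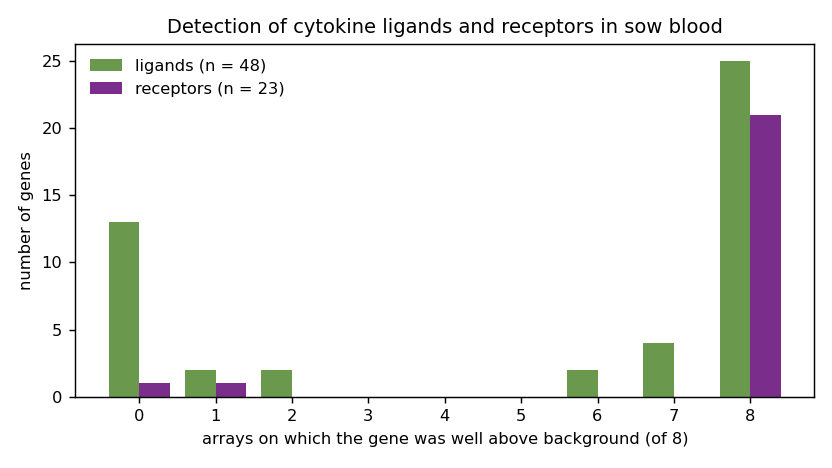
Number of ligands (48) and receptors (23) by the count of arrays, 0 to 8, on which the gene's brightest probe was well above background. Of the receptors 21 lie at 8 arrays, while 25 ligands lie at 8 arrays, 13 at 0 and 10 in between.

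The 13 ligands not well above background on any array included the T helper cytokines IL9, IL13, IL17A and IL21. The IL12 family chains IL12A, IL12B and IL23A, the colony-stimulating factor CSF2 and the acute-phase cytokine IL6 were others. A further IL6 probe, left out for an outlier spot, was above background on 1 pregnant and 2 non-pregnant arrays. The chemokines CXCL9, CXCL11, CXCL12 and CCL28 were in the same class. CCL2, which recruits monocytes, was well above background on 0 pregnant and 2 non-pregnant arrays (1 and 2 at a second probe), CCL26 on 0 and 1, IL7 on 1 and 1, TNFSF4 on 1 and 0, and the T cell growth factor IL2 on 3 and 3. Among receptors, only IL23R was below background on all 8 arrays, and IL2RA, the high-affinity chain of the IL2 receptor that T cells raise on activation, was above it on 1 non-pregnant array. No member was above background on all 4 arrays of one group and on none of the other (0 genes), 3 were detected on more pregnant arrays and 6 on more non-pregnant arrays.

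Pregnant and non-pregnant sows were compared with limma over 1817 named genes, those well above background on every array of one group or of both. These hold 51 of the 73 members: 29 ligands, 21 receptors and TNFAIP8L2. Values are log2 signals relative to the 75th percentile of the array, and a log2 fold change is pregnant minus non-pregnant. CCL24, IL4 and IL5 entered through the non-pregnant and CCL27 through the pregnant arrays, with 3 of 4 arrays above background in the other group.

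No member passed the test. Limma called 0 of 51 members and 0 of 1817 genes (0%) at an adjusted p under 0.05, and the smallest limma adjusted p of a member was 0.999. Even at an unadjusted p under 0.05 there were 0 members, where 2.42% of all genes passed, and the smallest unadjusted limma p of the 51 was 0.121, for CCL4. All 4 pregnant values lay on one side of all 4 non-pregnant values in 0 of the 51 members tested, against 1.49% of all genes. A difference of at least 2-fold, in either direction, was found in 1 member tested, CXCL8, against 1.87% of all genes.

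The log2 fold changes of ligands and of receptors lay on both sides of 0 in near equal numbers. Of the 29 ligands tested 15 were higher and 14 lower in pregnant sows, and their median was 0.02. These counts include CCL24, IL4, IL5 and CCL27, which entered the test through the arrays of a single group. The 21 receptors had 11 higher and 10 lower values and a median of 0.06. Over all genes tested the median was -0.04 and 44.1% were positive. The 95% interval of all 51 members held 0. It reached a median of 0.75 on the log2 scale to either side, which is 1.68-fold, and smaller differences were not detectable in most members with 4 arrays a group. That interval is for a single gene without adjustment. A call adjusted over 1817 genes needs a larger difference, and CXCL8, 2.65-fold lower in pregnant sows, was not called. In bulk blood, fewer cells of a type and less RNA per cell cannot be told apart.

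**Figure D2:**
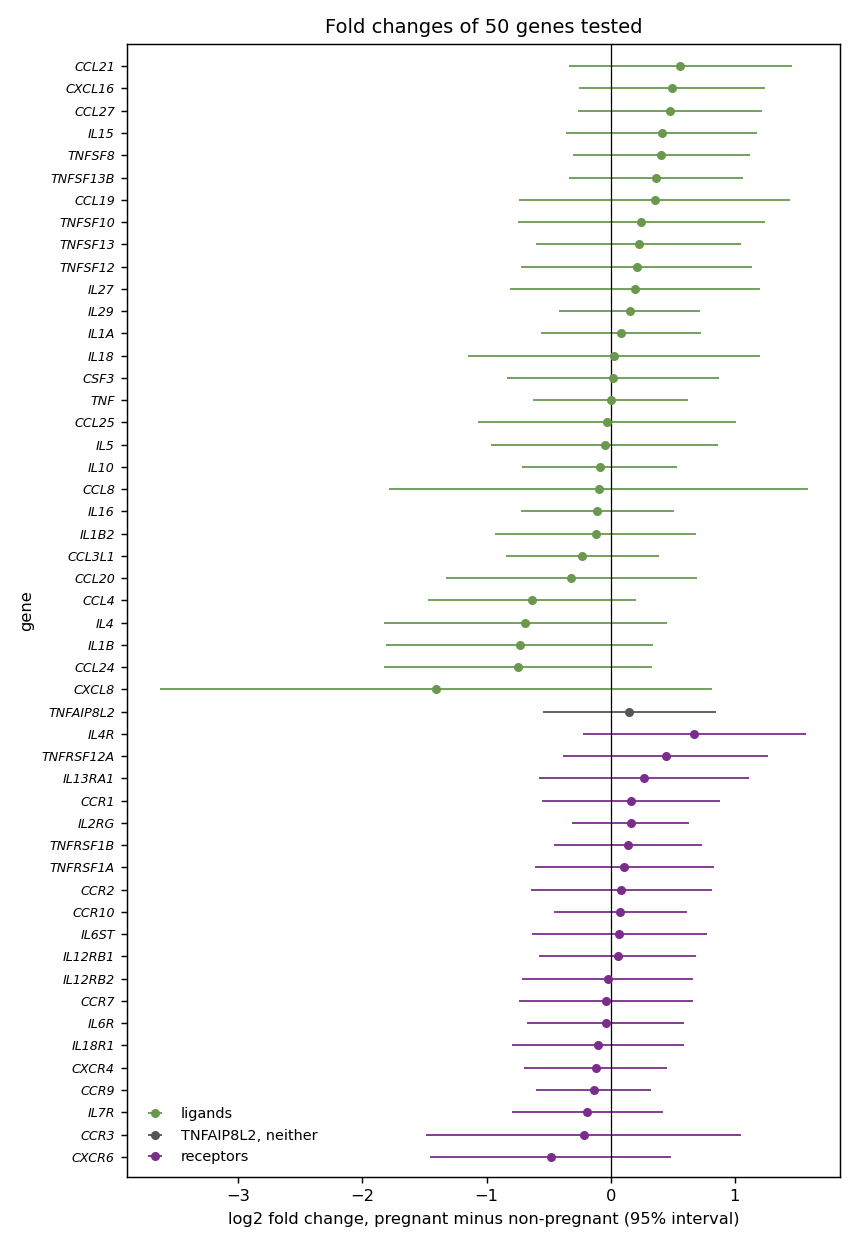
Log2 fold change, pregnant minus non-pregnant, of 50 of the 51 members tested (points) with the 95% interval of the limma fit (lines), ligands above and receptors below. All 50 lines cross 0, and CXCL8 at -1.41 has the widest.

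Ligands varied more between sows than receptors did. The SD over the 8 arrays had a median of 0.60 in the 29 ligands and 0.41 in the 21 receptors, the latter the same as over all genes tested (0.41). In the 25 ligands above background on every array it was 0.55. Of the ligands 23 of 29 varied more than the median gene, and of the receptors 10 of 21. The most variable members were CXCL2, CXCL8, IL7, TNFAIP6 and CCL8. At the other end stood receptors of lymphocytes. IL2RG, the common gamma chain shared by the receptors of several interleukins, had an SD of 0.18, and CCR9, the gut-homing receptor, one of 0.16, smaller than in all but 1.43% and 0.66% of the genes tested.

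Among inflammatory ligands, the neutrophil attractants CXCL8 and CXCL2 had the most negative log2 fold changes and the widest spread. Values are given in the order of replicates 1 to 4 of each group. CXCL8 stood at -1.0, -2.15, 0.09 and 1.78 in pregnant sows and at 0.30, 3.22, 1.77 and -0.92 in non-pregnant sows. The groups overlapped across most of their range: the highest value belonged to non-pregnant replicate 2, the lowest to pregnant replicate 2, and pregnant replicate 4 was above 3 of the 4 non-pregnant sows. The log2 fold change was -1.41 ± 0.99 (SE, n = 4 and 4), 2.65-fold lower in pregnant sows, with an interval for pregnant over non-pregnant from 0.0807 to 1.76 (limma adjusted p = 0.999). Leaving out pregnant replicate 4 gave -2.11, leaving out non-pregnant replicate 2 gave -0.70, and the value was -1.49 within slide 1 and -1.33 within slide 2. The SD of CXCL8 over the 8 arrays, 1.77, was larger than that of 99.1% of the genes tested.

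CXCL2, whose gene lies near CXCL8 in the pig assembly, had a like profile. It was above background on 3 arrays of each group, so it was not among the 51. Its values were -3.12, -4.35, -0.55 and 0.23 in pregnant sows and 0.05, 2.71, 0.98 and -3.93 in non-pregnant sows. As for CXCL8, replicate 2 held both ends, highest in the non-pregnant and lowest in the pregnant group. The difference was -1.90, and -1.61 at a second probe. In a fit without the filter on dim probes the limma adjusted p was 0.999 over 2382 genes.

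IL1B, the pyrogenic cytokine released by the inflammasome, stood at 1.44, 0.72, 1.59 and 1.57 in pregnant sows. In non-pregnant sows it stood at 2.22, 3.30, 1.95 and 0.78. Of the non-pregnant sows 3 lay above every pregnant sow, and replicate 4 was next to the lowest of all 8. The log2 fold change was -0.73 ± 0.48 (SE, limma adjusted p = 0.999), and -0.32 without non-pregnant replicate 2. IL1B2, a near-identical copy of IL1B known from the elongating pig conceptus, was at 0.82, 1.93, 1.08 and 0.67 against 0.77, 1.69, 0.79 and 1.72, a log2 fold change of -0.12. At this brightest probe the order of the sows was another one: pregnant replicate 2, lowest for IL1B, was highest for IL1B2. How far a probe of one copy also binds the other was not analysed here, which leaves the values of both uncertain. A second IL1B2 probe had a log2 fold change of -0.51, the largest gap between kept probes of any member. It was above background on 3 pregnant and 4 non-pregnant arrays, so the sign of its difference is not read here. Its order of the sows was nearer that of IL1B. Non-pregnant replicate 2 was highest (-1.72), and non-pregnant replicate 4 (-4.15) and pregnant replicate 2 (-4.09) were lowest. IL1A, which lies near IL1B and serves as an alarm signal of damaged cells, had a log2 fold change of 0.08.

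CCL4, a chemokine made by T cells, NK cells and monocytes, had the smallest p of the 51 members tested. It was at -0.45, 0.11, -0.07 and -0.04 in pregnant sows and at 1.06, 1.32, -0.22 and -0.07 in non-pregnant sows. Non-pregnant replicates 1 and 2 stood above all pregnant sows and the other two among them. The log2 fold change was -0.64 ± 0.37 (SE, limma adjusted p = 0.999), 1.55-fold lower in pregnant sows. CCL3L1, a related chemokine encoded near it, had one of -0.23. TNF, the founding member of its family, was at 1.51, 2.20, 1.98 and 1.47 against 2.20, 1.31, 1.92 and 1.73. The group means of TNF were both 1.79, a ratio of 0.999 (95% interval 0.65 to 1.54).

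**Figure D3:**
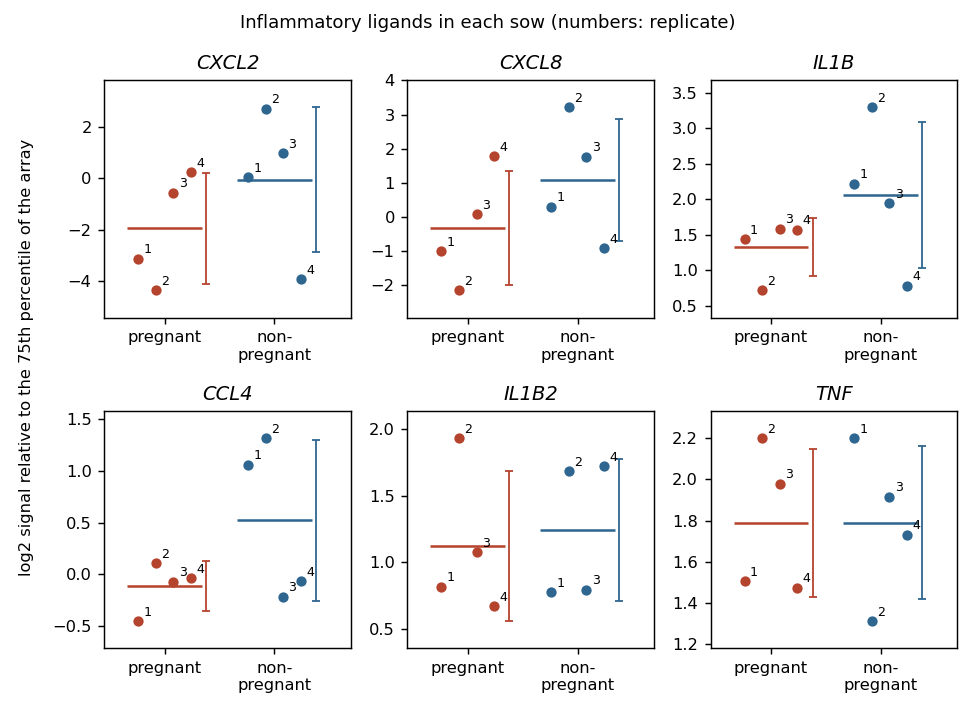
Log2 signal of 6 inflammatory ligands in each sow (points, numbered by replicate), with the group mean (horizontal line) and SD (vertical bar, n = 4); each panel has its own scale. Non-pregnant replicate 2 is the highest point for CXCL2, CXCL8, IL1B and CCL4, and in TNF the means of both groups are 1.79.

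CCL24, IL4 and IL5 were tested through the non-pregnant arrays, with 1 pregnant array of each not above background, so the sign of their differences is not read here. CCL24, which attracts eosinophils through CCR3, was at -4.58, -4.97, -2.96 and -3.48 in pregnant and at -3.09, -2.93, -2.82 and -4.15 in non-pregnant sows. IL4, which drives T helper 2 cells and antibody class switching, was at -2.71, -4.45, -3.59 and -2.20 and at -2.26, -3.39, -2.72 and -1.84. The groups overlapped in both genes, with pregnant replicate 2 lowest. The log2 fold changes were -0.75 ± 0.48 for CCL24 and -0.69 ± 0.51 for IL4 (SE, limma adjusted p = 0.999 each), and -0.42 and -0.28 without pregnant replicate 2. IL5, the eosinophil growth factor that lies near IL4, had one of -0.05.

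Of the ligands with a positive log2 fold change, the 5 with the smallest p overlapped between the groups. CCL21, which guides T cells and dendritic cells into lymph nodes, was at -2.64, -3.25, -3.46 and -2.55 against -3.97, -4.36, -3.18 and -2.65, a log2 fold change of 0.56 ± 0.40 (SE). CXCL16, the membrane-bound partner of CXCR6, was at 1.45, 0.72, 1.60 and 0.61 against 0.63, 0.88, -0.10 and 0.99, a log2 fold change of 0.49 ± 0.33 (SE). The difference in CXCL16 was 1.26 within slide 1 and -0.27 within slide 2, and 0.48 at a second probe over all arrays. CCL27, which draws T cells to skin, was at -4.58, -3.11, -4.11 and -4.11 against -4.62, -4.01, -4.59 and -4.62. Its log2 fold change was 0.48, and 0.19 without pregnant replicate 2. CCL27 was tested through the pregnant arrays, with 3 of 4 non-pregnant arrays above background, so the sign of its difference is not read here. TNFSF8, the ligand of CD30, was at -2.36, -3.29, -2.88 and -2.47 against -3.02, -3.81, -3.15 and -2.65, a log2 fold change of 0.41. IL15, a growth factor of NK and memory CD8 T cells, is the last of the 5, and its values follow. All 5 had a limma adjusted p of 0.999.

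TNFSF10, CCL8 and IL15, ligands that interferons are known to raise, were lowest in non-pregnant replicate 2, as were 16 of the 51 members in all, TNF, CCL21, TNFSF8, CCR1 and CCR7 among them. TNFSF10, also called TRAIL, which triggers death of target cells, was at 1.53, 0.90, 1.10 and 1.17 in pregnant sows and at 2.37, 0.20, 0.48 and 0.67 in non-pregnant sows. CCL8, a monocyte attractant, was at 2.37, 1.36, 1.58 and 2.74 and at 3.64, -0.34, 2.42 and 2.73. IL15 was at 2.12, 1.91, 1.97 and 2.43 and at 2.40, 0.88, 1.41 and 2.11. In each of these 3 genes non-pregnant replicate 2 was the lowest of all 8 sows and non-pregnant replicate 1 the highest or next to highest, so that the pregnant sows lay inside the range of the non-pregnant ones or at its upper end.

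TNFSF13B, the B cell survival factor BAFF, was at 1.23, 1.41, 0.69 and 0.97 against 1.24, 0.12, 0.38 and 1.10. IL27, a regulator of T cell responses, was at -0.81, -1.27, -1.44 and -1.24 against -0.49, -2.32, -2.17 and -0.56. Both were again lowest in non-pregnant replicate 2. The log2 fold changes were 0.41 for IL15, 0.36 for TNFSF13B, 0.25 for TNFSF10, 0.20 for IL27 and -0.10 for CCL8 (limma adjusted p = 0.999 each), and without non-pregnant replicate 2 they were 0.14, 0.17, 0.0040, -0.11 and -0.91. CCL8 was at -1.05 within slide 1 and 0.86 within slide 2. TNFSF13B, TNFSF10 and IL27 were set beside CCL8 and IL15 after their values were seen. A list of 19 interferon-stimulated genes, chosen later in the same way, had a mean level of 2.78, 2.83, 2.60 and 2.37 in pregnant sows and of 3.30, 1.79, 2.26 and 2.56 in non-pregnant sows, highest and lowest in the same sows as TNFSF10 and CCL8. Its part in the values of these ligands was not tested.

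**Figure D4:**
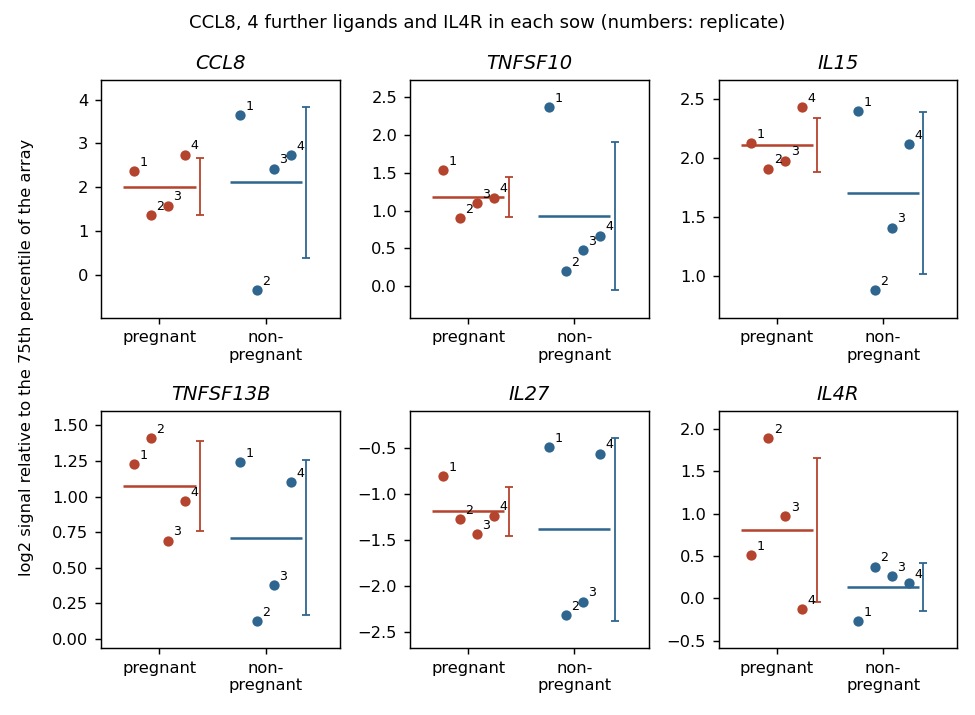
Log2 signal of CCL8, TNFSF10, IL15, TNFSF13B, IL27 and the receptor IL4R in each sow (points, numbered by replicate), with the group mean (horizontal line) and SD (vertical bar, n = 4); each panel has its own scale. Non-pregnant replicate 2 is lowest in the 5 ligands, while for IL4R pregnant replicate 2 is highest at 1.89.

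Non-pregnant replicate 2 was the lowest array more often among the members than over all genes. It was lowest in 16 of the 51 members (31.4%) and in 8.42% of all genes. The same array was also the highest more often, in 6 members (11.8%) against 4.35% of all genes. Pregnant replicate 2, which was lowest in 30.5% of all genes, was so in 25.5% of the members. Members are not replicates, and these counts are descriptions with no test.

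The remaining ligands had small fold changes. The TNF superfamily ligands had positive log2 fold changes in 5 of the 6 tested, and a median of 0.24. CC chemokines, CCL24 and CCL27 included, had 3 positive and 6 negative values, with a median of -0.10. IL18, the interferon-inducing member of the interleukin 1 family, was at 3.71, 5.24, 4.13 and 2.69 against 4.83, 3.46, 3.48 and 3.87, a log2 fold change of 0.03 in which the pregnant sows held both the highest and the lowest value. The same was true of TNFSF12 (TWEAK), at 4.68, 6.13, 5.49 and 4.05 against 4.59, 4.92, 4.95 and 5.05, and of CCL25, the thymus and gut chemokine, at 0.17, 1.83, 0.69 and -0.66 against 0.24, 0.61, 0.51 and 0.80. In these 3 genes pregnant replicate 2 was highest and pregnant replicate 4 lowest of all 8 sows. IL10, which restrains inflammation, had a log2 fold change of -0.09, the neutrophil growth factor CSF3 one of 0.02, IL16 one of -0.11 and CCL20 one of -0.32. IL29, an interferon of the lambda type, had one of 0.15. TNFSF13 (APRIL), a plasma cell survival factor, had a ratio of pregnant over non-pregnant of 1.17. IL7, the survival factor of naive T cells, was at -4.23, -6.01, -6.25 and -5.00 against -3.24, -5.52, -5.99 and -6.45, above background on 1 array of each group, so that most of its values are of signal near background.

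Among receptors, IL4R had the largest difference. This chain binds IL4 and, with IL13RA1, IL13. It was at 0.50, 1.89, 0.97 and -0.13 in pregnant sows and at -0.27, 0.37, 0.26 and 0.18 in non-pregnant sows. Of the pregnant sows 3 lay above every non-pregnant sow, and replicate 4 lay below 3 of them. The log2 fold change was 0.67 ± 0.40 (SE), 1.60-fold higher with an interval of 0.855 to 2.98 (limma adjusted p = 0.999). It was 0.74 within slide 1 and 0.61 within slide 2, and 0.31 without pregnant replicate 2.

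IL13RA1 was at -1.45, -2.11, -2.13 and -1.87 against -1.72, -3.12, -2.39 and -1.40, a log2 fold change of 0.27 with both extremes in non-pregnant sows. IL2RG was at 0.30, -0.17, 0.01 and 0.05 against -0.19, -0.20, -0.19 and 0.12. Its log2 fold change was 0.16, with an interval from 0.806-fold to 1.55-fold. IL7R, through which IL7 keeps T cells alive, was at 1.93, 1.16, 1.74 and 1.46 against 2.11, 1.25, 1.91 and 1.77, a log2 fold change of -0.19. IL18R1 was at -2.16, -2.96, -2.41 and -2.39 against -1.88, -3.11, -2.31 and -2.20, a log2 fold change of -0.10. The 2 chains of the IL6 receptor, IL6R and IL6ST, had values of -0.04 and 0.07, and those of the IL12 receptor, IL12RB1 and IL12RB2, of 0.06 and -0.02. Interleukin receptors as a family had 5 positive and 4 negative log2 fold changes among the 9 tested.

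All 3 TNF receptors had positive log2 fold changes at their brightest probe, where 44.1% of all genes did, and their groups overlapped. TNFRSF12A, the receptor of TNFSF12, was at -1.82, -1.63, -1.81 and -0.60 against -2.13, -2.55, -1.62 and -1.33. Its log2 fold change of 0.44 was 0.15 without pregnant replicate 4. TNFRSF1B, the TNF receptor of immune cells, was at 0.57, 0.34, 0.38 and 0.01 against -0.04, -0.28, 0.42 and 0.63, a log2 fold change of 0.14 with the pregnant sows inside the range of the non-pregnant ones. TNFRSF1A, the widely expressed TNF receptor, had one of 0.11.

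Of the 9 chemokine receptors tested 6 were lower in pregnant sows, which is near the share of 55.9% over all genes, and their median log2 fold change was -0.12. CXCR6, carried by memory T cells and NKT cells, was at -2.73, -3.34, -3.33 and -3.09 in pregnant sows and at -1.83, -1.87, -3.73 and -3.13 in non-pregnant sows. Non-pregnant replicates 1 and 2 stood above all others, as they did for CCL4. The log2 fold change was -0.48 ± 0.43 (SE, limma adjusted p = 0.999), and -0.21 without non-pregnant replicate 1.

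CCR9 was at 0.44, 0.19, 0.03 and 0.37 against 0.54, 0.31, 0.46 and 0.27, within 0.51 over all 8 sows. CXCR4, the receptor that holds cells in bone marrow, was at 2.03, 1.32, 2.19 and 2.03 against 2.00, 2.26, 1.74 and 2.06. The log2 fold changes were -0.14 for CCR9 and -0.12 for CXCR4, with overlapping groups. CCR3, the eosinophil receptor, was the most variable receptor (SD 0.89), at 3.22, 2.25, 2.44 and 4.81 against 3.70, 3.50, 2.44 and 3.96. CCR9, CXCR6, CCR1, CCR3 and CCR2 each lie within 5 genes of the next along the pig assembly, and their log2 fold changes were -0.14, -0.48, 0.16, -0.22 and 0.09. CCR1 and CCR2 bring monocytes to inflamed tissue, and a second CCR1 probe was of opposite sign (-0.14). CCR10, the receptor of CCL27, had a log2 fold change of 0.08.

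CCL19 and its receptor CCR7, which together bring T cells and dendritic cells into lymph nodes, were negatively correlated over the sows, short of the threshold once 11 pairs were counted. CCL19 was at -1.81, 0.37, -0.77 and -0.66 in pregnant sows and at -0.72, -0.47, -1.03 and -2.07 in non-pregnant sows. CCR7 was at 3.51, 2.87, 2.96 and 2.69 and at 2.67, 2.67, 3.05 and 3.78. Pregnant replicate 1 and non-pregnant replicate 4 were the lowest for the ligand and the highest for the receptor. In the other sows CCR7 lay between 2.67 and 3.05. Neither gene differed between the groups beyond its spread, with log2 fold changes of 0.35 for CCL19 and -0.04 for CCR7.

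Over 8 sows, Pearson's r of CCL19 and CCR7 was -0.83 (exact permutation p = 0.0252, two-sided) and Spearman's rho was -0.83 (exact permutation p = 0.0154). Adjusted over the 3 listed pairs, the exact permutation p was 0.0757 for r and 0.0461 for rho. Adjusted over 11 pairs, with 8 added after the data were seen, it was 0.212 for r and 0.169 for rho, so the correlation did not pass the threshold in the wider family. The permutation takes the 8 sows as exchangeable, although the sows include half-sibs. Without the 2 sows farthest from the median of CCL19, pregnant replicate 2 and non-pregnant replicate 4, r was -0.96 over 6 sows. It was -0.84 with values centred on each group, -0.84 with values centred on each slide, -0.83 with values centred on each replicate number, and between -0.98 and -0.70 with each sow left out in turn. Each of these checks kept pregnant replicate 1, non-pregnant replicate 4 or both, the sows lowest for CCL19 and highest for CCR7. How far r rests on these 2 sows was not tested. A slide held 4 sows, too few for a value of its own.

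The other 2 listed pairs with both members above background on all arrays did not pass the test. For TNF and TNFRSF1B r was 0.24 (exact permutation p = 0.564, adjusted 0.846) and rho 0.048 (exact permutation p = 0.935), and r without the 2 farthest sows was 0.12. For IL18 and IL18R1 r was -0.021 (exact permutation p = 0.961, also when adjusted) and rho 0.17 (exact permutation p = 0.703, adjusted 0.935). Without the 2 farthest sows, pregnant replicates 2 and 4, that r was 0.66, so its sign rests on them, and with values centred on each replicate number it was 0.77. Of 19 ligand and receptor pairs listed, these 3 had both members above background on all 8 arrays. A further 8 pairs were added after the data were seen, and among them CCL8 and CCR1 had the smallest p for r, with an r of 0.82 (exact permutation p = 0.0385, adjusted over 11 pairs 0.212), a rho of 0.52 and an r of 0.39 without non-pregnant replicates 1 and 2. CCL21, the other ligand of CCR7, had a positive r of 0.62 with it (exact permutation p = 0.0730, adjusted over 11 pairs 0.268). Over the other added pairs, CXCL16 and CXCR6, TNFSF12 and TNFRSF12A, CCL25 and CCR9, TNF and TNFRSF1A, CCL8 and CCR2, and IL15 and IL2RG, r lay between -0.50 and 0.48, and none passed the test. Of the added pairs CCL25 and CCR9 had the smallest p for rho, with a rho of -0.71 (exact permutation p = 0.0576, adjusted 0.317). Their r was -0.50, and -0.74 without pregnant replicates 2 and 4. Both values of a pair come from the same array and share its scaling.

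**Figure D5:**
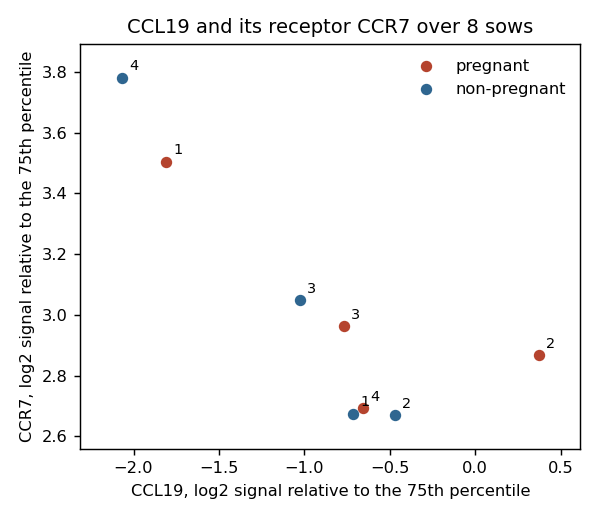
Log2 signal of CCL19 (horizontal) against that of its receptor CCR7 (vertical) in the 8 sows, coloured by group and numbered by replicate. The receptor is highest, at 3.78 and 3.51, in the sows with the lowest ligand, and Pearson's r is -0.83.

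TNFAIP6, the matrix-binding protein TSG-6 that inflammatory cytokines induce, was the only member whose groups did not overlap, and it was dim. It was at -5.39, -4.61, -4.16 and -3.72 in pregnant sows and at -6.72, -6.83, -6.94 and -6.27 in non-pregnant sows. It was well above background on 2 pregnant and 0 non-pregnant arrays, so it was not among the 51. The group means were -4.47 and -6.69, and no fold is given, since 2 pregnant and 4 non-pregnant values are of signal not well above background. In the fit of 2382 genes without the filter its unadjusted limma p was 0.00016, the smallest of any gene, and the adjusted p was 0.300. In that fit 1 of 73 members did not overlap, against 1.3% of genes, and 1 of 73 had an unadjusted p under 0.05, against 2.52% of genes. A second probe, above background on 1 pregnant array, differed by 0.50, and its groups overlapped. At that probe pregnant replicate 4 was highest (-3.50), while pregnant replicates 1 to 3 lay below non-pregnant replicates 1 to 3. With normexp background correction (offset 50) the difference at the brightest probe was 0.058. TNFAIP8L2, a brake on T cell and Toll-like receptor signalling, was at 3.13, 2.30, 2.52 and 2.50 against 2.71, 2.23, 1.88 and 3.04, a log2 fold change of 0.15.

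Limma called 0 of the genes that carry cytokine signals inside the cell. NF-kappaB signalling had 6 positive and 7 negative log2 fold changes among 13 tested, and their median was -0.05. In that list TRAF6, the ubiquitin ligase below the interleukin 1 and Toll-like receptors, was 2.32-fold higher in pregnant sows (limma adjusted p = 0.999). Its unadjusted p was 0.044, where 1.6% of all genes were higher at an unadjusted p under 0.05. JAK, STAT and SOCS genes had 10 positive and 6 negative values and a median of 0.04, among them SOCS5 at -0.38. Genes that couple chemokine receptors to movement had 4 positive and 4 negative values and a median of 0.03. Of 24 other cytokines and receptors 14 were higher and 10 lower in pregnant sows, around a median of 0.07, from LIF at 1.04 to FAS at -0.53.

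Markers of the blood cells that make and carry these proteins were present on the arrays. The arrays measured 12 of 13 neutrophil, 12 of 14 monocyte, 13 of 13 T cell, 10 of 10 cytotoxic and NK cell, 3 of 3 B cell and 7 of 7 platelet markers named on them. The mean level of the T cell markers was 1.01 to 1.44 in pregnant and 1.47 to 1.72 in non-pregnant sows, and that of the monocyte markers 1.68 to 1.93 and 1.27 to 1.51, so that neither list overlapped between the groups. Of the T cell markers 12 of 13 had a negative and of the monocyte markers 11 of 12 a positive log2 fold change, while 0 passed the test. Over all genes tested 55.9% were negative and 44.1% positive. Other lists were uneven too: 9 of 10 cytotoxic and NK cell, 3 of 3 B cell and 6 of 7 platelet markers were negative. Of the neutrophil markers 9 of 12 were positive. The mean levels of these other lists overlapped between the groups. Neutrophil markers were at 1.72 to 3.22 and 1.87 to 2.38, highest in pregnant replicate 2. Single markers did not overlap between the groups in 3 of 13 T cell, 1 of 10 cytotoxic and NK cell and 0 of 12 monocyte markers. Over all genes tested 1.49% did not overlap. An unadjusted limma p under 0.05 was found for 2 T cell, 1 cytotoxic and NK cell and 1 monocyte marker, against 2.42% of all genes. The part of these cells in the values of the ligands and receptors was not tested.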

How the data were processed

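Total RNA of each sow was labelled with Cy3 and hybridised to 1 array, per the labels' protocols. The authors deposited scanner files made with Agilent's Feature Extraction, in version 10.7 per the submitters' processing notes and 10.7.3.1 per the file headers, whose processed signal is a background-subtracted spot intensity on a linear scale, not normalized between arrays. A second file deposited by the authors holds log2 values with no stated normalization. Its columns matched the log2 signal of their own arrays (lowest r 0.99895) and shared quartiles of 2.19, 5.03 and 7.76, so scale and direction are known and centring is not.

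Control spots and outlier spots were left out, and 215 of 43603 probes had every spot of some array left out and were dropped. Log2 signals were taken relative to the array's 75th percentile, and 0 spots were saturated. On each array 61.7% to 69.3% of probes stood well above background. RefSeq accessions were matched to symbols through RefSeq's gene table of Sscrofa11.1, which served for names and gene order only: 5461 of 5779 such probes matched, 102 of them to the 73 members. Each gene is its brightest probe over all arrays. Of 16 members tested with several kept probes, 11 had 1 sign over all of them.

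Groups were compared with limma 3.58.1 (R 4.3.3, lmFit and eBayes, two-sided, Benjamini-Hochberg over all genes, threshold 0.05), checked on simulated data. Correlations used exact permutation over all 40320 orders of the sows (scipy 1.17.1), tables pandas 2.3.3 in Python 3.11.15 and plots matplotlib 3.10.9. The number of arrays limits the precision.

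Values were named for up to 5 members of smallest p per role and direction, members whose groups did not overlap, members of computed pairs and the 5 most variable. The members and lists were chosen with earlier results of these data known, and other members named with values were chosen after their values were seen. Alternatives were other normalizations, normexp (offset 50, on the median signal and local background, as the mean signal was not used here), other filters, blocks for slide or replicate number, further ligand and receptor pairs (added after the data were seen), slides taken singly, array weights, trended variance, the deposited table, the mean of probes, all probes, and each array left out. Columns of other samples numbered 0. The values of 1 receptor and 1 signalling gene are not reported here, while both stay in the fit and the counts.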

Additional observations from a re-analysis of the deposited data

Results flagged for a closer look

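In 6 of 102 groups of 4 sows (5.88%), 1 sow lay far from the other 3 by Dixon's criterion for its group's range. Chance marks about 1 in 20 such groups, so this count is near what no outlier would give. Among ligands, CCL27 was at -4.01 in non-pregnant replicate 2, with the others between -4.62 and -4.59, and IL10 was at -0.94 in pregnant replicate 2, with the others between -0.27 and -0.19.

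Among receptors, CCR10, which CCL27 binds, was at -0.77 in the same non-pregnant replicate 2, with the others between -1.37 and -1.29. IL12RB1 was at -0.22 in pregnant replicate 2, with the others between 0.65 and 0.78. IL2RG was at 0.12 in non-pregnant replicate 4, with the others between -0.20 and -0.19. TNFRSF12A was at -0.60 in pregnant replicate 4, with the others between -1.82 and -1.63.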

How the results depend on the processing

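Under 22 alternatives limma called 0 genes and 0 members, and the smallest adjusted p of a member was 0.300, for TNFAIP6 with no filter on dim probes, and 0.460 among the named members of the main comparison. The median log2 fold change stayed between -0.11 and 0.19 for ligands and between -0.10 and 0.21 for receptors. Detection on at least 1 array gave 35 ligands and 22 receptors. The labels do not say that replicate numbers pair the sows, and the main fit did not pair them. Deviations from the group means correlated at 0.43, 0.52, 0.39 and 0.06 for numbers 1 to 4. Numbers 1, 2 and 3 each matched best with themselves and number 4 did not. The sows were chosen as 3 pairs of half-sibs and 1 unrelated pair, and whether the numbers mark these pairs was not tested. With the number as a replicate block 0 genes were called (smallest limma adjusted p = 0.571).

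Some log2 fold changes changed sign, and the cause was not tested. Slide 1 alone gave -0.42 for CCL19, -0.24 for IL18, 0.37 for CCR7 and 0.24 for CXCR4. Slide 2 alone gave 0.86 for CCL8, -0.27 for CXCL16, 0.31 for TNF, -0.23 for TNFAIP8L2, -0.018 for IL2RG and 0.48 for IL7. Array weights gave 0.26 for CCL8, 0.23 for TNF, 0.045 for CCR7, 0.044 for CXCR4, 0.15 for IL18R1 and 0.069 for IL7R. IL18 was at -0.014 with quantile normalization, -0.030 with normexp and -0.0075 in the deposited table, and TNF at 0.011 with normexp and 0.0019 with the mean of its probes.

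Leaving out 1 array gave -0.16 to 0.14 for TNF, -0.046 to 0.34 for TNFAIP8L2, -0.0078 to 0.72 for CCL19, -0.91 to 0.41 for CCL8, -0.40 to 0.45 for IL18, -0.20 to 0.21 for CCR7, -0.22 to 0.070 for CXCR4, -0.35 to 0.062 for IL18R1, -0.054 to 0.52 for IL13RA1, -0.013 to 0.29 for TNFRSF1B and -0.46 to 0.61 for IL7. The correlation of TNF and TNFRSF1B ran from -0.24 to 0.51. That of IL18 and IL18R1 ran from -0.36 to 0.50 and was 0.66 without the 2 farthest sows, 0.77 centred on each replicate number, 0.054 with quantile normalization, 0.15 with scaling on the median, 0.047 with normexp and 0.066 in the deposited table.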
